A study of Homo sapiens with 24 samples.

Results

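The response of H929, an established human multiple myeloma cell line, to the CDK7 inhibitor YKL-5-124 (YKL) was followed at 6 h and 24 h, and genes were sorted by whether they moved early, late or in both. The study holds 24 libraries of the myeloma lines H929 and MM1S, and the results rest on all 12 libraries of H929, fitted together with those of MM1S. They form 4 groups of 3 libraries: YKL for 6 h, the vehicle DMSO for 6 h, YKL for 24 h and DMSO for 24 h. The labels give 83 nM for these cells, DMSO libraries included. H929 is 1 line, and no allele was altered in any group. Cells were grown in multiwell plates, and the RNA libraries read the 3′ ends of transcripts (QuantSeq). Nothing in the labels ties a replicate to a culture of its own. All p-values therefore speak only of the spread among these libraries, which may be technical.

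CDK7 is the kinase of the general transcription factor TFIIH. It phosphorylates the tail of RNA polymerase II as transcription starts, and it activates the cell cycle kinases CDK1 and CDK2 by phosphorylating their activation loops. Loss of its activity can therefore act on short-lived transcripts within hours and on cell cycle genes, many of them under E2F and RB control, as cells stop dividing. Myeloma cells are malignant plasma cells, whose identity rests on factors such as IRF4 and XBP1 and whose secretory load keeps the unfolded protein response in use.

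Plasma cell identity markers were present in the libraries. Of those listed, 11 had an entry, and each of the 11 reached 1 FPKM (a level per transcript length, scaled between libraries) in at least 1 H929 library. Their summed level was 7697 to 11887 FPKM in YKL libraries against 11380 to 14965 in DMSO libraries at 6 h, and 4053 to 7517 against 9712 to 11168 at 24 h. Of 10 T cell markers, 8 stayed under 1 FPKM in every H929 library, as did 7 of 10 epithelial and fibroblast markers and 4 of 10 monocyte markers. The T cell markers summed to 3.71 to 5.45 FPKM in YKL libraries and 2.52 to 4.49 in DMSO libraries at 6 h, and to 3.30 to 4.09 and 2.73 to 5.22 at 24 h. In the same order the monocyte markers summed to 57.5 to 89.9, 61.0 to 88.6, 35.8 to 60.8 and 43.6 to 69.7 FPKM. For the epithelial and fibroblast markers the sums were 21.9 to 30.5, 20.3 to 34.5, 9.58 to 25.1 and 27.7 to 30.5 FPKM.

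The amount of RNA over the ERCC spike-ins set the scale of the comparison. Summed gene FPKM over summed ERCC FPKM was 10.5, 15.8 and 15.0 in the YKL libraries at 6 h, against 14.1, 16.4 and 17.1 in the DMSO libraries. At 24 h it was 7.52, 4.53 and 8.98 with YKL, against 13.5, 14.4 and 12.6 with DMSO. The groups overlapped at 6 h and did not overlap at 24 h, when YKL replicate 2 was the lowest library with 9334 genes at 1 FPKM or more. The log2 difference between YKL and DMSO was -0.22 at 6 h and -1.002 at 24 h. The difference between these differences, -0.78, had p = 0.18 in a two-sided exact permutation test. The test took the 400 relabellings of YKL and DMSO within each time, and its smallest possible p is 0.005. It takes YKL and DMSO as alike at both times, and its smallest p needs differences of opposite sign at 6 h and 24 h. With differences of the same sign it cannot decide whether the drop deepened. In bulk samples fewer cells and less RNA per cell cannot be told apart. Every result is therefore given on the deposited scale, which carries this drop, and, where it matters, after dividing each library by a median-of-ratios factor (rescaled). Over all genes tested the median log2 change was -0.06 at 6 h and -0.46 at 24 h as deposited, and 0.07 and 0.13 rescaled.

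**Figure D1:**
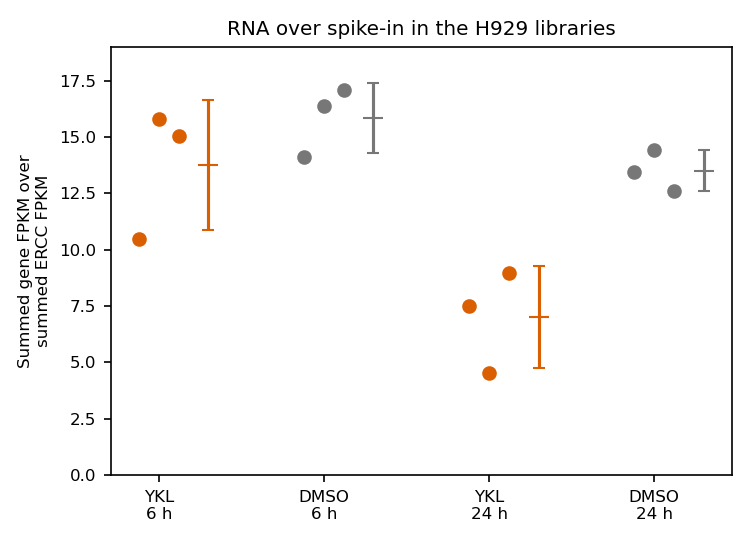
Summed gene FPKM over summed ERCC spike-in FPKM in each H929 library (points), with the mean and SD of 3 libraries beside them (bar). The YKL libraries at 24 h lie between 4.53 and 8.98, below the DMSO libraries at 12.6 to 14.4.

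Changes are differences of log2(FPKM + 1) with their standard errors, and a gene was called at an adjusted p under 0.05 (limma with Benjamini-Hochberg adjustment, two-sided). Of 26249 genes listed, 12418 reached 1 FPKM in at least 3 libraries and were tested. At 6 h, 128 genes were higher with YKL (1.03% of those tested) and 144 were lower (1.16%). At 24 h, 332 were higher (2.67%) and 4396 were lower (35.4%). The interaction, the 24 h change minus the 6 h change, was called higher for 36 genes (0.290%) and lower for 767 genes (6.18%). After rescaling the shares became 5.10% higher and 4.19% lower at 6 h, 20.8% and 12.5% at 24 h, and 5.77% and 4.65% for the interaction. The main direction of the interaction thus turned with the scale, from lower as deposited to about even when rescaled. Of the 803 genes called as deposited 499 were called on both scales, and 0 were called in the opposite direction.

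As deposited, most genes whose response changed with time fell late, while rescaled the late rises (557 genes) outnumbered the late falls (463). A gene was early and lasting when it was called at both times in 1 direction. It was transient when called at 6 h and not at 24 h with a called interaction of the opposite sign. Late only meant called at 24 h and not at 6 h with a called interaction of the same sign, and sign-changing meant called at both times in opposite directions. Late only, down held 677 genes, of which 372 held that class rescaled too. Early and lasting, down held 126 genes (86 on both scales) and early and lasting, up held 45 (43 on both). Transient, up at 6 h held 30 genes (10 on both), late only, up held 28 (25 on both), and transient, down at 6 h held 5 (1 on both). Of the sign-changing genes, 5 went up and then down (1 on both scales) and 0 went down and then up as deposited, against 38 rescaled. At an unadjusted p under 0.05 in limma, 4 genes went down and then up as deposited. The counts hung on single libraries: the interactions called lower numbered 257 without DMSO 24 h replicate 2 and 1417 without YKL 24 h replicate 3, and moved by over 1.5 times from 767 without any 1 library other than YKL 24 h replicate 1 or DMSO 6 h replicate 2. Of the late only, down genes, 181 kept the class in all 12 fits that left out 1 library, and of the early and lasting ones 23 that fell and 8 that rose did.

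**Figure D2:**
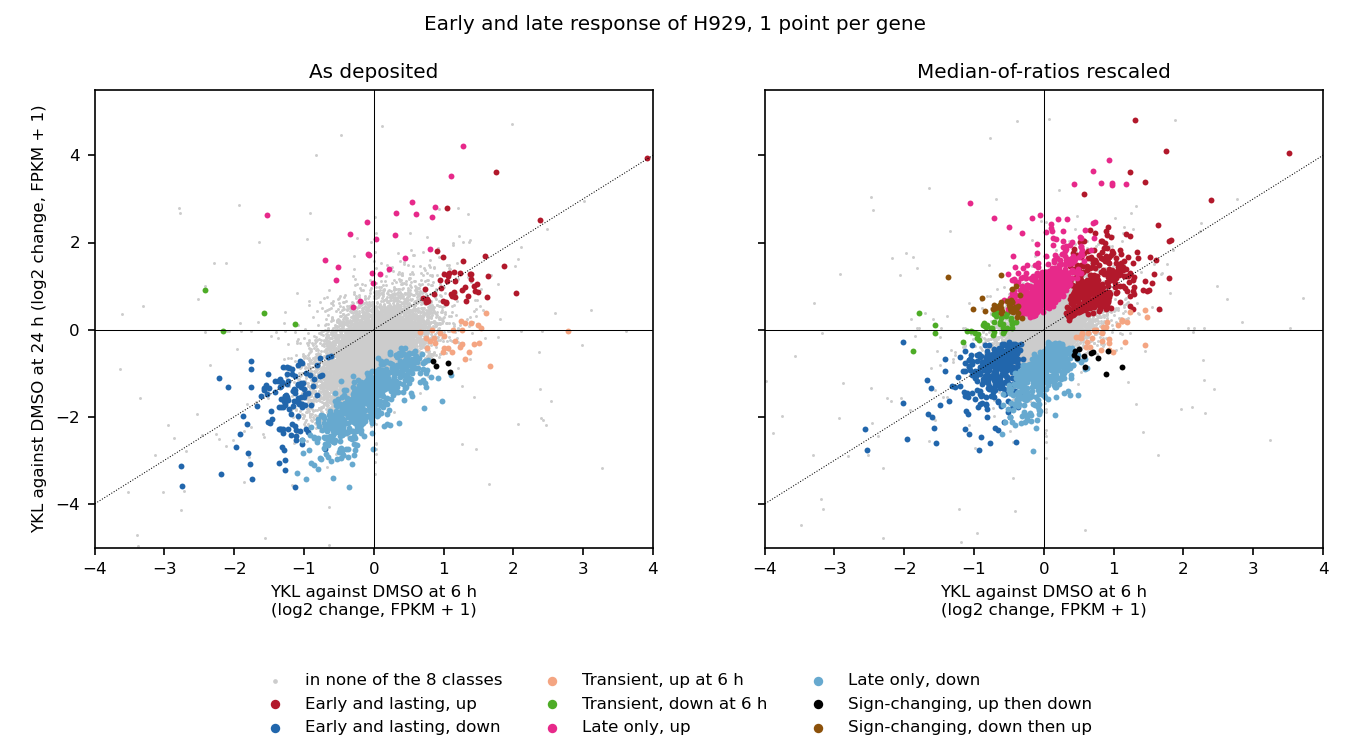
Log2 change of each gene tested at 6 h (x axis) and at 24 h (y axis), YKL against DMSO, as deposited (left) and rescaled (right), with the dotted line at equal change. The 677 late only, down genes form the band under the line on the left, and 38 genes on the left and 28 on the right lie outside the axes and are not drawn.

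**Figure D3:**
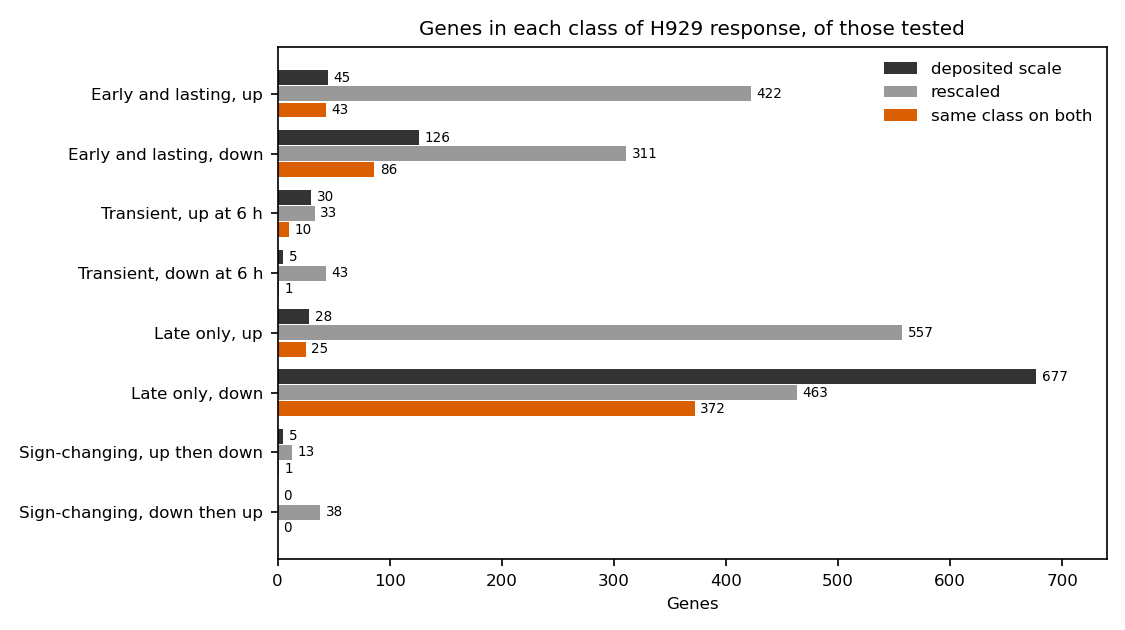
Number of genes in each class on the deposited scale, after rescaling and on both. Late only, down is the one class with more genes as deposited (677) than rescaled (463), and the rising classes grow from 45 and 28 genes as deposited to 422 and 557 rescaled.

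A further 3588 genes lower and 259 higher at 24 h alone could not be placed because their interaction was not called. Another 48 genes higher and 13 lower were called at 6 h alone without a called interaction. The genes on either side of the interaction threshold were C19orf47, at -1.24 with an adjusted p of 0.0499, and FAM83D, at -1.32 with an adjusted p of 0.0502. C19orf47 was late only, down and FAM83D was left unplaced; both were named after their values were seen, so membership near the threshold turns on small differences in spread. As deposited, few genes were called between the DMSO libraries at 6 h and 24 h: 13 genes were higher at 24 h (0.105%) and 5 were lower (0.0403%), and of the 803 genes with a called interaction 4 were among them. PFKFB4, a glycolysis regulator, was one: it was lower in DMSO at 24 h (-1.36, adjusted p = 0.023), and its interaction was -1.59 (adjusted p = 0.015). On the rescaled values CCL3 was higher in DMSO at 24 h (0.90, adjusted p = 1.4e-05) and DDIT4 was lower (-1.23, adjusted p = 1.6e-06), so DMSO calls also depended on the scale.

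Genes that fell early and stayed low included a germline gene, a blood cell transcription factor and hosts of small nucleolar RNAs. TEX19, a germline gene expressed in some tumours, stood at 24.1, 33.4 and 33.0 FPKM in YKL libraries at 6 h, against 170, 237 and 219 in DMSO libraries. At 24 h it stood at 17.8, 11.01 and 18.9 FPKM with YKL, against 185, 233 and 182 with DMSO. The YKL and DMSO libraries did not overlap at either time. The log2 change was -2.75 ± 0.28 at 6 h (adjusted p = 1.2e-05) and -3.60 ± 0.28 at 24 h (adjusted p = 1.3e-08), and the interaction of -0.84 was not called (adjusted p = 0.18).

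MYB, a transcription factor of immature blood cells, fell as early. Its level was 1.58, 1.20 and 0.768 FPKM with YKL at 6 h, against 4.60, 11.7 and 6.57 with DMSO. With YKL at 24 h it was 0.354, 0.358 and 0.606 FPKM, against 7.37, 7.04 and 5.48 with DMSO. No YKL library reached the lowest DMSO library at either time. The log2 changes were -1.92 ± 0.28 and -2.40 ± 0.28 (adjusted p = 0.00068 and 2.2e-06), held on both scales and in all 12 fits that left out 1 library. OR7E12P, an olfactory receptor pseudogene, fell by 2.19 and 3.30, and FAM69B, a membrane protein of the endoplasmic reticulum, fell by 1.97 and 2.70 on the log2 scale at 6 h and 24 h. Both also kept their class in all 12 such fits and after rescaling.

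Hosts of small nucleolar RNAs, whose introns yield the guides of ribosomal RNA modification, held several early falls. Of 18 tested, 5 were called lower at 6 h and 15 at 24 h, against 1.16% and 35.4% of all genes, with medians of -0.85 and -1.67. The early and lasting members were SNHG1, SNHG7, SNHG12, SNHG17 and EPB41L4A-AS1; all but SNHG1 were named after their values were seen. SNHG1 stood at 121, 188 and 203 FPKM with YKL at 6 h, against 490, 627 and 571 with DMSO, and at 45.6, 28.0 and 62.6 with YKL at 24 h, against 410, 585 and 443 with DMSO. The groups were apart at both times, and the fall deepened: -1.74 ± 0.28 at 6 h, -3.43 ± 0.28 at 24 h, with an interaction of -1.69 ± 0.40 (adjusted p = 0.015; -1.05 rescaled, adjusted p = 0.00024). SNHG12 changed by -2.09 at 6 h and -1.32 at 24 h, and its interaction of 0.77 was not called (adjusted p = 0.35). Rescaled, it was not called at 24 h (-0.48, adjusted p = 0.12) and became transient. SNHG16 was late only as deposited (-0.86 at 6 h, adjusted p = 0.066, and -3.11 at 24 h), and early and lasting once rescaled. SNHG17 left its class without DMSO 6 h replicate 2 or 3 or YKL 6 h replicate 1 or 3, and EPB41L4A-AS1 (interaction -1.44, adjusted p = 0.041) held its class in 3 of 12 fits that left out 1 library.

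The early falls that lasted included ATF4 and, as deposited only, XBP1. ATF4, the transcription factor of the amino acid and integrated stress responses, stood at 250.4, 369 and 374 FPKM with YKL at 6 h, against 580, 969 and 798 with DMSO. With YKL at 24 h it had 191, 85.1 and 231 FPKM, against 787, 769 and 725 with DMSO. The groups did not overlap at either time. It was lower by -1.23 ± 0.31 at 6 h and -2.28 ± 0.31 at 24 h (adjusted p = 0.036 and 1.1e-05), on both scales, though the 6 h call was near the threshold and the class held in 7 of 12 fits that left out 1 library. Those that lost it left out DMSO 6 h replicate 2 or 3 or any YKL library at 6 h.

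Of 30 genes of the unfolded protein response and secretion tested, 2 were lower and 0 higher at 6 h (1.16% and 1.03% of all genes). Their 6 h median was -0.11, against -0.06 over all genes. At 24 h 19 were lower and 1 was higher (35.4% and 2.67%). Rescaled, 3 were lower and 2 higher at 6 h (4.19% and 5.10%), and 9 lower and 6 higher at 24 h (12.5% and 20.8%). XBP1, which drives the secretory expansion of plasma cells, had a class that turned on the scale. It stood at 1037, 1537 and 1369 FPKM with YKL at 6 h, against 2738, 3755 and 3515 with DMSO. The level at 24 h was 1666, 868 and 1764 FPKM with YKL, against 3132, 3209 and 2666 with DMSO. As deposited it was early and lasting (-1.35 ± 0.31 and -1.13 ± 0.31, adjusted p = 0.02 and 0.0063). Rescaled, the 24 h change was -0.29 (adjusted p = 0.054), the interaction 0.86 (adjusted p = 0.0013), and XBP1 was transient. The class was also lost without DMSO 6 h replicate 2 or 3, YKL 6 h replicate 1 or 3, or YKL 24 h replicate 2. Rescaling made transient 11 of the 126 early and lasting, down genes, and another 22 were then called at 6 h alone with no called interaction. AFMID, an enzyme of tryptophan breakdown, and the antisense RNA IL10RB-AS1 were among those 22.

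CCL3, a chemokine made by myeloma cells, fell at both times, and the late fall was the smaller one once rescaled. It stood at 55.1, 91.7 and 72.5 FPKM with YKL at 6 h, against 299, 343 and 371 with DMSO, and at 301, 180 and 381 with YKL at 24 h, against 648, 630.2 and 513 with DMSO. The groups did not overlap, and the gap was narrower late. The changes were -2.22 ± 0.28 and -1.11 ± 0.28. The interaction of 1.10 was not called as deposited (adjusted p = 0.087) and was 1.74 rescaled (adjusted p = 6.6e-08). The rescaled interaction came with a rise in the vehicle group from 6 h to 24 h (0.90 rescaled, adjusted p = 1.4e-05). In MM1S, CCL3 was lower by -1.82 at 6 h (adjusted p = 0.00033) and -0.22 at 24 h (adjusted p = 0.78).

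Genes that rose early and stayed up numbered 45, against 126 that fell early and stayed low, while rescaled they were the more numerous, at 422 against 311. KRCC1, a coiled-coil gene, stood at 7.33, 12.2 and 12.9 FPKM with YKL at 6 h, against 1.80, 2.18 and 2.50 with DMSO. By 24 h there were 7.20, 9.54 and 11.3 FPKM with YKL, against 3.18, 3.54 and 1.74 with DMSO. Each YKL library was above each DMSO library of its time. The changes were 1.87 ± 0.33 and 1.45 ± 0.33 (adjusted p = 0.003 and 0.0015), with no called interaction (-0.42, adjusted p = 0.59). RABL2A, a small GTPase of cilia, rose by 1.59 and 1.69, and the antisense RNA ST3GAL4-AS1 by 2.39 and 2.53. All 3 kept their class in all 12 fits that left out 1 library and after rescaling. The sources used here do not state whether reads were assigned by strand, so reads of an antisense RNA and of its partner gene cannot be told apart.

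Of 26 histone genes tested, 2 were early and lasting, up (0.362% of all genes were), and both had a larger change at 24 h than at 6 h. HIST1H2BG, a histone H2B gene, stood at 9.16, 19.9 and 13.1 FPKM with YKL at 6 h, against 1.97, 3.64 and 4.68 with DMSO. In the 24 h libraries it was at 51.9, 24.1 and 32.2 FPKM with YKL, against 2.84, 0.848 and 2.41 with DMSO. The groups were apart at both times, by 1.75 ± 0.39 and 3.61 ± 0.39. The interaction was 1.86 ± 0.55 (adjusted p = 0.044; 2.35 rescaled, adjusted p = 0.022), and the class held in 8 of 12 fits, lost without DMSO 6 h replicate 1 or 2 or YKL 6 h replicate 2 or 3. HIST1H2BK, named after its values were seen, rose by 1.05 and 2.79 with an interaction of 1.74 (adjusted p = 0.0021). It became late only without DMSO 6 h replicate 3 or YKL 6 h replicate 2 or 3.

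HIST2H2BE, another H2B gene, was late only as deposited. Its level was 9.05, 11.5 and 8.90 FPKM with YKL at 6 h, against 1.83, 5.39 and 3.83 with DMSO. With YKL at 24 h it was 96.2, 42.6 and 104 FPKM, against 4.53, 3.61 and 1.71 with DMSO. The YKL libraries were above the DMSO libraries at both times, and the 6 h change of 1.28 ± 0.35 missed the threshold (adjusted p = 0.053). At 24 h the change was 4.22 ± 0.35 (adjusted p = 2.6e-08), and the interaction was 2.94 ± 0.49 (adjusted p = 0.0016). Rescaled, the 6 h change was called (1.30, adjusted p = 0.0071) and the gene was early and lasting, as it was without DMSO 24 h replicate 3 or YKL 24 h replicate 2 or 3.

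The histone list split by gene. Of 26 replication-dependent histone genes tested, 10 were higher and 4 lower at 24 h, against 2.67% and 35.4% of all genes. The interaction was called higher for 6 and lower for 2, against 0.290% and 6.18%. HIST1H4C, a histone H4 gene, stood at 134, 212 and 147 FPKM with YKL at 6 h, against 273, 480 and 334 with DMSO, and at 56.2, 57.0 and 55.5 with YKL at 24 h, against 504, 856 and 781 with DMSO. The groups were apart at both times and further apart late: -1.13 ± 0.28, -3.61 ± 0.28 and an interaction of -2.48 ± 0.39 (adjusted p = 0.001). It was late only without DMSO 6 h replicate 2 or 3 or YKL 6 h replicate 1 or 3. HIST1H2BD and HIST1H3D, named after their values were seen, were late only, up, with interactions of 2.37 and 1.94. Both left the class without DMSO 6 h replicate 3, YKL 6 h replicate 3 or DMSO 24 h replicate 3, and HIST1H2BD also without YKL 6 h replicate 2 or YKL 24 h replicate 1. The libraries read polyadenylated ends, while replication-dependent histone mRNA ends in a stem-loop without a poly(A) tail. These values may therefore count tailed histone transcripts, which was not tested. Members share long stretches of sequence, and how the authors divided shared reads is not stated, so the values of single members are uncertain.

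Transient rises held p53 target genes. Of 30 p53 targets tested, 7 were higher at 6 h (1.03% of all genes were) and 0 were lower, with a median log2 change of 0.45 against -0.06 over all genes. At 24 h, 4 were higher and 7 were lower, against 2.67% and 35.4% of all genes. The interaction was called lower for 11 (6.18% of all genes) and higher for 0, with 2 higher at an unadjusted p under 0.05 in limma. The 6 transient members were SESN1, SESN2, POLH, PLK3, TNFRSF10B and EDA2R, of the 30 genes in the class, and the last 3 were named after their values were seen. TP53INP1, also named so, was the 1 early and lasting member, at 0.96 and 1.13, and lost its 6 h call without any 1 of the 6 h libraries. Late only, down held DDB2, AEN, PHLDA3 and PPM1D, named after their values were seen, with interactions of -1.58, -1.43, -1.51 and -1.29. DDB2 kept that class in all 12 fits that left out 1 library, and the others in 4, 2 and 5. Rescaled, AEN alone of these genes kept the class. After rescaling the list's median was 0.53 at 6 h and 0.33 at 24 h, against -0.33 at 24 h as deposited, so its late direction flipped with the scale. Then 15 were higher at 6 h (5.10% of all genes), 12 were higher and 4 lower at 24 h (20.8% and 12.5%), and the interaction was called higher for 5 and lower for 8 (5.77% and 4.65%).

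SESN1, a stress-induced sestrin that restrains mTORC1, stood at 13.0, 13.6 and 14.4 FPKM with YKL at 6 h, against 4.15, 4.42 and 4.65 with DMSO. At 24 h it stood at 2.78, 2.30 and 3.67 FPKM with YKL, against 4.19, 5.24 and 2.52 with DMSO. The groups were wide apart at 6 h and overlapped at 24 h. The change was 1.44 ± 0.27 at 6 h (adjusted p = 0.0061) and -0.32 ± 0.27 at 24 h (adjusted p = 0.37), with an interaction of -1.76 ± 0.39 (adjusted p = 0.010; -1.18 rescaled, adjusted p = 0.0013). The class held in all 12 fits that left out 1 library.

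POLH, the DNA polymerase that copies past ultraviolet damage, stood at 10.4, 15.0 and 12.5 FPKM with YKL at 6 h, against 4.80, 5.87 and 5.04 with DMSO. With YKL at 24 h it had 3.97, 2.78 and 5.05 FPKM, against 5.41, 7.11 and 5.31 with DMSO. The YKL libraries were the higher ones at 6 h and the lower ones at 24 h, without overlap. The late change of -0.51 ± 0.22 missed the threshold (adjusted p = 0.075) after an early rise of 1.12 ± 0.22 (adjusted p = 0.0091), and the interaction was -1.63 ± 0.32 (adjusted p = 0.0049; -1.03 rescaled). Without YKL 6 h replicate 2 or YKL 24 h replicate 3 the gene left the class.

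SESN2, the second sestrin, stood at 36.6, 44.0 and 46.9 FPKM with YKL at 6 h, against 12.3, 17.4 and 13.5 with DMSO. The level at 24 h was 16.3, 9.19 and 18.2 FPKM with YKL, against 15.5, 21.3 and 16.7 with DMSO. The early rise of 1.51 ± 0.26 (adjusted p = 0.003) was gone late as deposited (-0.32, adjusted p = 0.36). Rescaled, a smaller late rise remained called (0.46, adjusted p = 0.0023) and the gene was early and lasting, while the interaction stayed below 0 on both scales (-1.82 and -1.18). CDKN1A, the cell cycle inhibitor p21, stood at 127, 188 and 170 FPKM with YKL at 6 h, against 69.7, 91.6 and 88.2 with DMSO, and at 66.0, 35.8 and 69.1 with YKL at 24 h, against 102, 87.2 and 70.9 with DMSO. Its YKL libraries were above DMSO early and below it late. Neither change was called (0.94, adjusted p = 0.067, and -0.64, adjusted p = 0.068), but their difference was (-1.58 ± 0.39, adjusted p = 0.018). That call was lost without DMSO 6 h replicate 1, YKL 6 h replicate 2 or 3, DMSO 24 h replicate 2 or YKL 24 h replicate 2. Rescaled, it was transient, with 1.13 at 6 h (adjusted p = 5.5e-05) and 0.19 at 24 h (adjusted p = 0.35). PLK3, a stress-induced kinase, TNFRSF10B, a death receptor, and EDA2R, a receptor of the TNF family, had interactions of -1.48, -1.51 and -1.05. They kept the transient class in 7, 7 and 4 of the 12 fits, and rescaled EDA2R left it (interaction -0.55, adjusted p = 0.27).

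Outside the p53 list, the lens protein gene CRYGS and the antisense RNA IDI2-AS1 were transient on both scales, with interactions of -2.50 and -1.98. CRYGS stood at 6.47, 4.26 and 5.85 FPKM with YKL at 6 h, against 0.838, 0.128 and 3.08 with DMSO, and at 0.389, 0.551 and 1.18 with YKL at 24 h, against 2.70, 1.72 and 1.66 with DMSO. Both genes were low, and they held the class in 7 and 8 of 12 fits that left out 1 library. Both lost it without DMSO 6 h replicate 2 or any YKL library at 6 h, and CRYGS also without DMSO 6 h replicate 1. CTB-12O2.1 stood at 12.7, 5.47 and 4.08 FPKM in the YKL libraries at 6 h and near the tables' floor of about 0.1 FPKM in the other 9 libraries. It held the transient class in 1 of 12 fits that left out 1 library and was not called when rescaled. No fold is given against groups at the floor.

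Of the 5 genes with a transient fall, RGS1, a regulator of G protein and chemokine receptor signalling, was the 1 that held on both scales. It stood at 1.19, 1.63 and 3.35 FPKM with YKL at 6 h, against 8.87, 15.7 and 12.7 with DMSO. By 24 h there were 1.12, 1.17 and 0.760 FPKM with YKL, against 0.932, 1.97 and 0.493 with DMSO. The level with YKL was low at both times, and the DMSO libraries were low at 24 h too. RGS1 was 1 of the 5 genes that were lower in DMSO at 24 h than at 6 h (-2.68, adjusted p = 0.00039), so its interaction of 2.14 ± 0.46 (adjusted p = 0.0094) came with a change in the vehicle group. In MM1S it was lower by -1.44 at 6 h (adjusted p = 0.0082). MYL5, a myosin light chain, was at the floor in all YKL libraries at 6 h, at 0.131, 0.164 and 0.152 FPKM, against 7.99, 6.56 and 2.35 with DMSO. TRAF3IP3, an adaptor of lymphoid cells, moved by -1.58 at 6 h and 0.37 at 24 h (interaction 1.95, adjusted p = 0.02). Rescaled, TRAF3IP3 rose at 24 h (1.20, adjusted p = 5.9e-05) and was sign-changing. It left the class without DMSO 6 h replicate 2 or 3, YKL 6 h replicate 1 or 3, or DMSO 24 h replicate 2 or 3. L3HYPDH and SNORA18 made up the 5 and were named after their values were seen.

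Genes of DNA replication fell late almost as a whole. Of 46 genes of replication and the G1/S step, 1 was lower at 6 h and 45 at 24 h, where 35.4% of all genes were lower, and 0 were higher at either time, also at an unadjusted p under 0.05 in limma. The median log2 change was -0.34 at 6 h and -2.24 at 24 h, against -0.06 and -0.46 over all genes. The interaction was called lower for 39 of the 46, against 6.18% of all genes, and all 39 were late only, down. Rescaled, 44 were lower at 24 h (12.5% of all genes were), with a median of -1.48 against 0.13 over all genes. The interaction was then called lower for 35 (4.65% of all genes), and 32 were late only, down on both scales.

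The promoters of a few genes are printed to set the replication and mitosis genes beside a transient and an amino acid gene. They were taken from RefSeq (GRCh38.p14), a build other than that of the deposited files, and run from 180 bases before to 10 after the annotated start, 5′ to 3′ on the gene's strand. Capitals mark the letters of 4 motifs on either strand. These are the E2F element (TTTGGCGC or TTTCCCGC), the cell cycle homology region of mitotic genes (CHR, TTTGAA), the CCAAT box (CCAAT) and the ATF4 element (TGATGCAA).
CDC45, late only, down, chr22:19479740-19479929, plus strand: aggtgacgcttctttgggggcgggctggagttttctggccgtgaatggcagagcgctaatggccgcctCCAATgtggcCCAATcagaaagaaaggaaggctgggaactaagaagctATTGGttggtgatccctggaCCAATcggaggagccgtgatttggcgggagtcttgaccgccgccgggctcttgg
ORC1, late only, down, chr1:52404414-52404603, minus strand: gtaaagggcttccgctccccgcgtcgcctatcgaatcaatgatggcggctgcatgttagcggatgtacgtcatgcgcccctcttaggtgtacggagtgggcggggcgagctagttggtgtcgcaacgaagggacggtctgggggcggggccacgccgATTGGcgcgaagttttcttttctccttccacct
CKS1B, late only, down, chr1:154974501-154974690, plus strand: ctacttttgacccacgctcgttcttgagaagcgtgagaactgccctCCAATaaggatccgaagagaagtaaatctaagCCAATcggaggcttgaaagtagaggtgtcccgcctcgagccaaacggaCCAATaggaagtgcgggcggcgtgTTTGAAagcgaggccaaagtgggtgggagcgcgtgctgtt
PSAT1, late only, down, chr9:78296945-78297134, plus strand: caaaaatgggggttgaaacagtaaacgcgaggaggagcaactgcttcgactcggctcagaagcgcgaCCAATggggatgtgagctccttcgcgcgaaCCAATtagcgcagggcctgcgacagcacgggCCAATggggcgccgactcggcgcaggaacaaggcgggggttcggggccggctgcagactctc
POLH, transient, up at 6 h, chr6:43576005-43576194, plus strand: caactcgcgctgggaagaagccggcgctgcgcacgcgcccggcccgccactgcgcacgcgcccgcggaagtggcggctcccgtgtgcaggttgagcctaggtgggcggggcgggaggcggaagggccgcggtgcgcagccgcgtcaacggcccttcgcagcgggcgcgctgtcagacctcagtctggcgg

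CDC45 held CCAAT letters starting at -112, -102, -64 and -44 from the start, and CKS1B held a CHR match at -30. POLH held none of the 4 motifs, which says only that these letters are not in this window. SESN2, also transient, up at 6 h as deposited and not printed above, held CCAAT letters on the other strand at -151 and -86. Of the 677 late only, down genes, 548 matched a promoter in the RefSeq table by symbol or synonym, and of all genes tested 9748 did. Over windows from 250 bases before to 50 after the start, 10.2% of the 548 held E2F letters (56 genes), against 3.80% of the 9748. CHR letters stood in 16.6% against 9.80%, CCAAT letters in 46.7% against 37.55%, and the ATF4 element in 0.547% against 0.523%. Among all 27305 promoters of the table the shares were 2.31%, 15.4%, 35.7% and 0.923%. In the lists the E2F letters stood in 16 of 40 replication and G1/S promoters, and CHR letters in 26 of 39 G2/M and mitosis promoters. A match is a description of the sequence and was not tested as a cause of any change.

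CDC45, a subunit of the active replicative helicase, stood at 15.5, 20.9 and 25.2 FPKM with YKL at 6 h, against 21.4, 16.9 and 23.2 with DMSO. In the 24 h libraries it was at 1.24, 1.497 and 2.05 FPKM with YKL, against 14.7, 18.8 and 15.0 with DMSO. The groups were mixed at 6 h and far apart at 24 h. The change was -0.01 ± 0.24 at 6 h (adjusted p = 0.99) and -2.73 ± 0.24 at 24 h (adjusted p = 5.1e-08), and the interaction was -2.72 ± 0.34 (adjusted p = 0.00014; -2.13 rescaled, adjusted p = 0.00017). ORC1, the large subunit of the origin recognition complex, stood at 6.32, 8.29 and 9.35 FPKM with YKL at 6 h, against 5.71, 5.65 and 6.32 with DMSO, and at 0.511, 0.292 and 0.856 with YKL at 24 h, against 5.22, 6.402 and 5.69 with DMSO. Its YKL libraries lay just above the DMSO libraries early (0.37, adjusted p = 0.48), and the interaction was -2.51 ± 0.32 (adjusted p = 0.00017). CDC6, the helicase loader, and RRM2, the small subunit of ribonucleotide reductase, had interactions of -2.60 and -2.82. RRM2 was early and lasting when rescaled because its early change of -0.39 was then called (adjusted p = 0.021).

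Some regulators of the G1/S step fell late. Of 21 cell cycle CDKs, cyclins and inhibitors tested, 13 were lower at 24 h (35.4% of all genes were), the interaction was called lower for 4 (6.18% of all genes), and 3 were late only, down. Rescaled, 3 were higher and 5 lower at 24 h, against 20.8% and 12.5% of all genes. E2F1, the activator of S phase genes, stood at 28.1, 39.4 and 45.3 FPKM with YKL at 6 h, against 46.0, 62.9 and 50.6 with DMSO, and at 10.997, 6.42 and 11.6 with YKL at 24 h, against 75.7, 67.2 and 72.3 with DMSO. The groups were apart at both times, narrowly at 6 h, where the change was not called (-0.50, adjusted p = 0.41). At 24 h it was -2.81 ± 0.28, and the interaction was -2.30 ± 0.39 (adjusted p = 0.002; -1.68 rescaled). CDK2, a kinase that CDK7 activates, had a late change of -2.14 and an interaction of -1.77 (adjusted p = 0.015), and its activating phosphatase CDC25A one of -2.15 (adjusted p = 0.0021). CDK2 lost its interaction call without YKL 6 h replicate 3, and CDC25A was early and lasting without DMSO 6 h replicate 1 or YKL 24 h replicate 2, and when rescaled. Of 18 genes of the E2F and RB family tested, 12 were lower at 24 h (35.4% of all genes were), the interaction was called lower for 4 (6.18% of all genes), and these 4 were late only, down on both scales, E2F8 among them (-1.67). Rescaled, 1 was higher and 6 were lower at 24 h, against 20.8% and 12.5% of all genes.

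Mitotic genes fell late as well. Of 44 genes of G2/M and mitosis, 1 was lower at 6 h and 43 at 24 h, and the interaction was called lower for 28, against 1.16%, 35.4% and 6.18% of all genes. Rescaled, the interaction was called lower for 24 (4.65% of all genes). CKS1B, the cyclin kinase adaptor whose gain marks high-risk myeloma, stood at 1123, 1591 and 1735 FPKM with YKL at 6 h, against 1595, 2379 and 2034 with DMSO. At 24 h it stood at 349, 200.4 and 457 FPKM with YKL, against 2269, 2692 and 2088 with DMSO. The groups overlapped early and were far apart late, with -0.44 ± 0.32 (adjusted p = 0.57), -2.88 ± 0.32 (adjusted p = 8.7e-07) and an interaction of -2.44 ± 0.45 (adjusted p = 0.0031; -1.79 rescaled). AURKB, the kinase of the chromosomal passenger complex, had an early change of -0.97 that was not called (adjusted p = 0.088) and an interaction of -2.46 (adjusted p = 0.0021). Without YKL 24 h replicate 2, or rescaled, AURKB was early and lasting. Of 29 genes of homologous recombination and the checkpoint, 25 were lower at 24 h (35.4% of all genes were) and 13 had an interaction called lower (6.18% of all genes), among them FANCG (-2.06) and RAD51AP1 (-1.91).

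As deposited, most genes of the ATF4 and amino acid response list were lower at 24 h, while ATF4 itself, a member, was lower at both times. Of 31 listed genes, 3 were lower and 1 higher at 6 h, 27 were lower at 24 h, and the interaction was called lower for 10. Of all genes 1.16% were lower and 1.03% higher at 6 h, 35.4% were lower at 24 h, and 6.18% had an interaction called lower. The 3 early and lasting members were ATF4, DDIT4 and STC2, of which the last 2 were named after their values were seen, and 8 were late only, down. Rescaled, the balance turned: 7 of the 31 were early and lasting, down and 5 were late only, down (2.50% and 3.73% of all genes were). At 6 h 7 were then lower (4.19% of all genes were) and 1 was higher (5.10%). STC2 had an interaction of -1.73 (adjusted p = 0.023), and rescaled its early change missed the threshold (-1.07, adjusted p = 0.055). DDIT4 and STC2 left their class without DMSO 6 h replicate 2 or 3 or any YKL library at 6 h. PSAT1, an enzyme of serine synthesis, stood at 48.0, 61.4 and 55.6 FPKM with YKL at 6 h, against 71.3, 95.2 and 94.9 with DMSO. With YKL at 24 h it had 14.03, 6.3996 and 14.2 FPKM, against 85.7, 98.5 and 85.7 with DMSO. The groups did not overlap at either time, although the early change was not called (-0.65, adjusted p = 0.25). The late change was -2.93 ± 0.28 (adjusted p = 1.4e-07) and the interaction -2.28 ± 0.39 (adjusted p = 0.0021; -1.66 rescaled). PHGDH, the first enzyme of the same pathway, had an interaction of -1.84 (adjusted p = 0.0061).

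Ribosome, folding and metal-binding genes were also lower late. Of 43 genes of ribosome biogenesis and MYC targets, 4 were lower at 6 h and 42 at 24 h, with the interaction called lower for 17, against 1.16%, 35.4% and 6.18% of all genes, among them IMPDH2 of guanine nucleotide synthesis (-2.17) and NPM1 of the nucleolus (-1.97). Rescaled, 12 of the 43 were lower at 6 h (4.19% of all genes were), with 12 early and lasting, down and 11 late only, down (2.50% and 3.73%). Of 50 cytosolic ribosomal proteins 0 were called at 6 h by limma, also at an unadjusted p under 0.05, and 49 were lower at 24 h, but the interaction was called for 5, a share nearer the 6.18% of all genes, RPL5 (-1.64) and RPS3 (-1.46) among them. Rescaled, 29 of the 50 were lower at 24 h (12.5% of all genes were), and their median was -0.44 against -1.28 as deposited. Of 21 heat shock genes 18 were lower at 24 h (35.4% of all genes were), and HSPD1, the mitochondrial chaperonin, and FKBP4, a cochaperone of HSP90, had interactions of -2.06 and -1.66. FKBP4 lost the call without YKL 6 h replicate 2. MT2A, a metal-binding metallothionein, stood at 81.0, 89.8 and 98.6 FPKM with YKL at 6 h, against 86.3, 162 and 108 with DMSO. It stood at 10.3, 8.50 and 10.5 FPKM with YKL at 24 h, against 138, 135 and 118 with DMSO. The groups overlapped early and lay far apart late, and the gene had an interaction of -3.26 ± 0.83 (adjusted p = 0.024). MT2A, RPL5 and RPS3 each left the class without DMSO 6 h replicate 1, YKL 6 h replicate 2 or 3, DMSO 24 h replicate 2 or YKL 24 h replicate 2. PAQR4, a membrane receptor-like protein, fell late with an interaction of -2.77 in all 12 such fits.

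**Figure D4:**
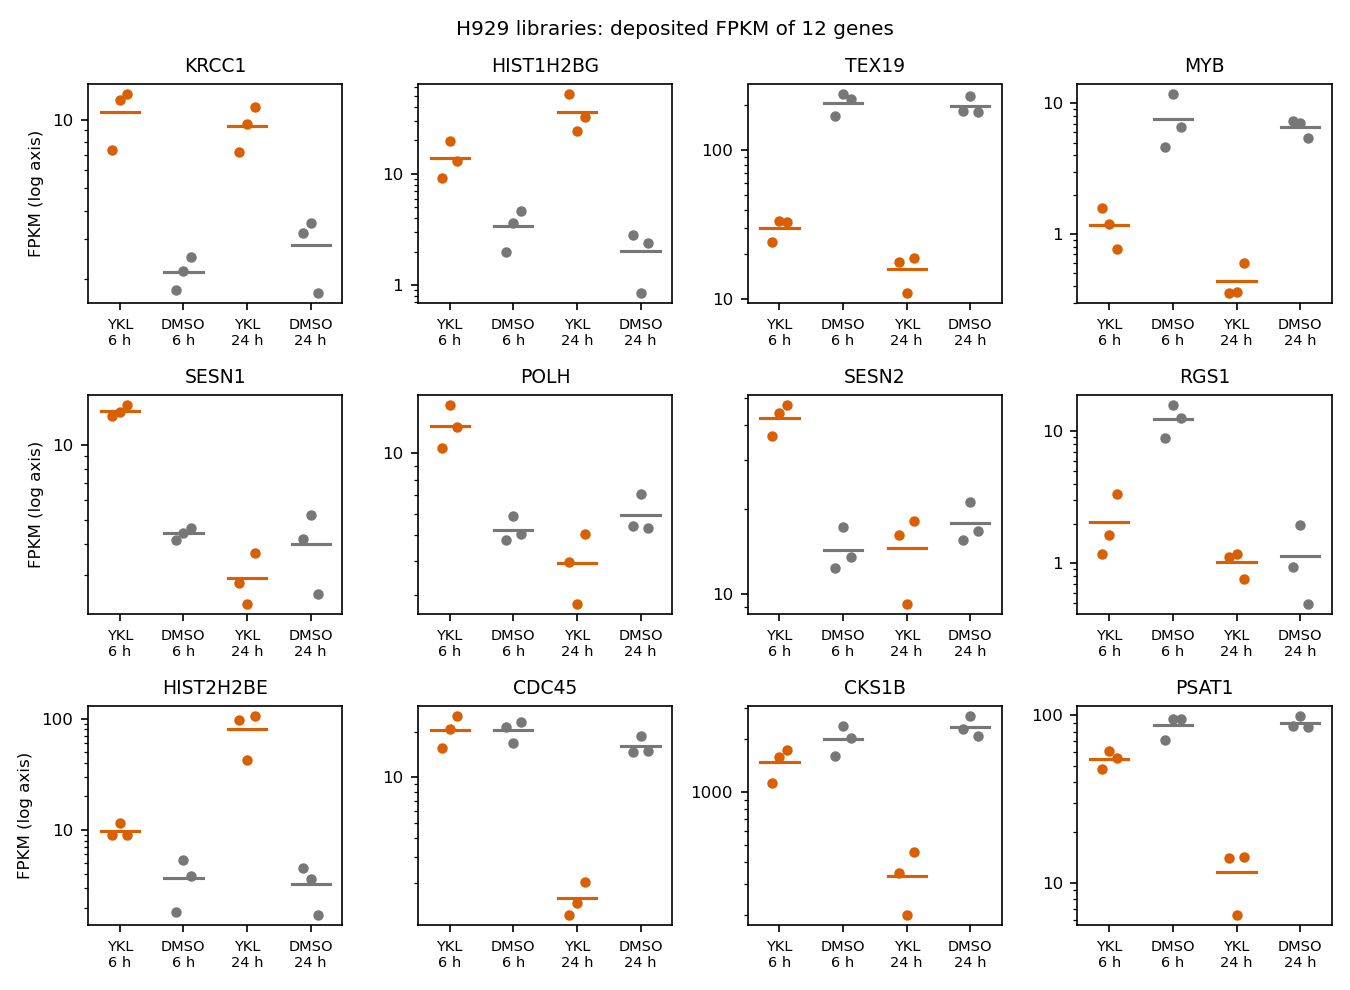
Deposited FPKM of 12 genes in each H929 library (points, log axis) with the mean of 3 libraries (line), YKL and DMSO at 6 h and then at 24 h. SESN1 is high in the YKL libraries at 6 h alone (13.0 to 14.4 FPKM), and CDC45 is low in those at 24 h alone (1.24 to 2.05 FPKM).

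Late rises were few as deposited, 28 genes against 557 rescaled. MILR1, an inhibitory receptor of mast cells, stood at 2.09, 5.46 and 1.90 FPKM with YKL at 6 h, against 0.752, 1.98 and 0.125 with DMSO. The level at 24 h was 31.5, 10.4 and 33.8 FPKM with YKL, against 1.98, 0.908 and 0.513 with DMSO. The groups overlapped early and not late, with an interaction of 2.42 ± 0.57 (adjusted p = 0.016; 2.96 rescaled). P2RX1, an ATP-gated ion channel, had a late change of 2.66 and an interaction of 2.06 (adjusted p = 0.0091), and its early change was called when rescaled (0.58, adjusted p = 0.029). MILR1 lost the interaction call without YKL 6 h replicate 3. ZNF341-AS1 and ENDOG, a mitochondrial nuclease, were at most 0.857 and 2.11 FPKM in the other 9 libraries and had interactions of 2.57 and 2.52. ZNF341-AS1 kept its class in all 12 fits that left out 1 library, and ENDOG in 5. S100A8, a monocyte marker, stood at 2.17, 3.09 and 1.89 FPKM with YKL at 24 h, against 1.03, 0.109 and 0.108 with DMSO (interaction 1.33, adjusted p = 0.038), and kept its class in 5 of 12 such fits. The summed level of the 10 monocyte markers was 35.8 to 60.8 FPKM in those YKL libraries, against 43.6 to 69.7 in the DMSO libraries, and 4 of the 10 were under 1 FPKM in every H929 library. The part of other cells in this rise was not tested.

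RNY5, the Y RNA of Ro ribonucleoprotein, was listed at 1635, 834 and 2511 FPKM in the YKL libraries at 24 h and near the floor in all other H929 libraries, between 0.0958 and 0.143 FPKM. VTRNA1-3, a vault RNA, was at 89.8, 83.1 and 256 FPKM in the same libraries and at the floor in DMSO at 24 h. It was also at 118 FPKM in YKL 6 h replicate 2 and 189 in DMSO 6 h replicate 1, so its presence was not tied to the late YKL libraries. Both are short RNAs made by RNA polymerase III without a poly(A) tail, both are read here from libraries built on poly(A) ends, and FPKM of a very short transcript is inflated by the division by length. No fold is given for either. In MM1S neither was called at either time.

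Of the 5 sign-changing genes, C21orf58 was the 1 that the naming rule kept. It stood at 5.08, 7.73 and 7.38 FPKM with YKL at 6 h, against 2.92, 3.71 and 2.75 with DMSO. By 24 h there were 2.68, 0.980 and 2.90 FPKM with YKL, against 4.52, 4.26 and 4.53 with DMSO. The YKL libraries were above DMSO early and below it late, by 0.89 ± 0.24 and -0.83 ± 0.24 (adjusted p = 0.049 and 0.0088), with an interaction of -1.73 ± 0.34 (adjusted p = 0.0055). Rescaled, the late change was not called (-0.22, adjusted p = 0.27), and the class held in 2 of 12 fits that left out 1 library, those without YKL 6 h replicate 1 and YKL 24 h replicate 3. The other members, named after their values were seen, were LINC00926, TICAM2, TMPRSS5 and SCARNA23, and of the 5 only SCARNA23 kept the class rescaled. DDB2 and RBM14 showed the reverse: both were late only, down as deposited (interactions of -1.58 and -2.53) and went up and then down when rescaled.

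The late direction of plasma cell and myeloma regulators turned with the scale. Of 29 such genes tested, 3 were higher and 7 lower at 24 h as deposited, against 16 higher and 3 lower rescaled, and the interaction was called lower for 2 as deposited, against higher for 13 and lower for 2 rescaled. All genes turned the same way, with 2.67% higher and 35.4% lower at 24 h as deposited, against 20.8% and 12.5% rescaled. Over all genes the interaction was called lower for 6.18% as deposited, against higher for 5.77% and lower for 4.65% rescaled. IRF4, on which myeloma cells depend, stood at 43.5, 62.3 and 60.8 FPKM with YKL at 6 h, against 64.5, 79.0 and 83.1 with DMSO, and at 58.6, 45.7 and 76.5 with YKL at 24 h, against 63.0, 85.2 and 63.6 with DMSO. The groups were just apart early and overlapped late, and neither change nor the interaction was called (0.20, adjusted p = 0.77). Rescaled, IRF4 was late only, up, with 0.58 at 24 h (adjusted p = 0.0014). MCL1, a BCL2 family survival gene, was called on the rescaled values alone: its interaction was -0.07 as deposited (adjusted p = 0.92) and 0.57 rescaled (adjusted p = 0.0027). CFLAR, an inhibitor of death receptor signalling, fell by 1.23 at 6 h (adjusted p = 0.014; not called without DMSO 6 h replicate 2 or 3 or YKL 6 h replicate 3), and at 24 h its change was -0.33 as deposited (adjusted p = 0.34) and 0.48 rescaled (adjusted p = 0.0070). The antibody chain gene JCHAIN and the chaperone gene MZB1 were lower at 24 h (-0.99 and -1.22), with no called interaction, and JCHAIN lost the call without YKL 24 h replicate 2. Rescaled, the late change was -0.15 for JCHAIN (adjusted p = 0.45) and -0.38 for MZB1 (adjusted p = 0.019).

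CDK7 itself stood at 6.13, 7.75 and 5.46 FPKM with YKL at 6 h, against 9.30, 8.89 and 10.2 with DMSO, and at 4.84, 2.47 and 4.85 with YKL at 24 h, against 5.83, 9.97 and 6.20 with DMSO. The libraries did not overlap at either time, yet no change was called (-0.50 and -0.73, adjusted p = 0.52 and 0.084). MYC was under 1 FPKM in all 12 libraries, and CCND2 stayed between 0.880 and 2.61 FPKM with no call.

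**Figure D5:**
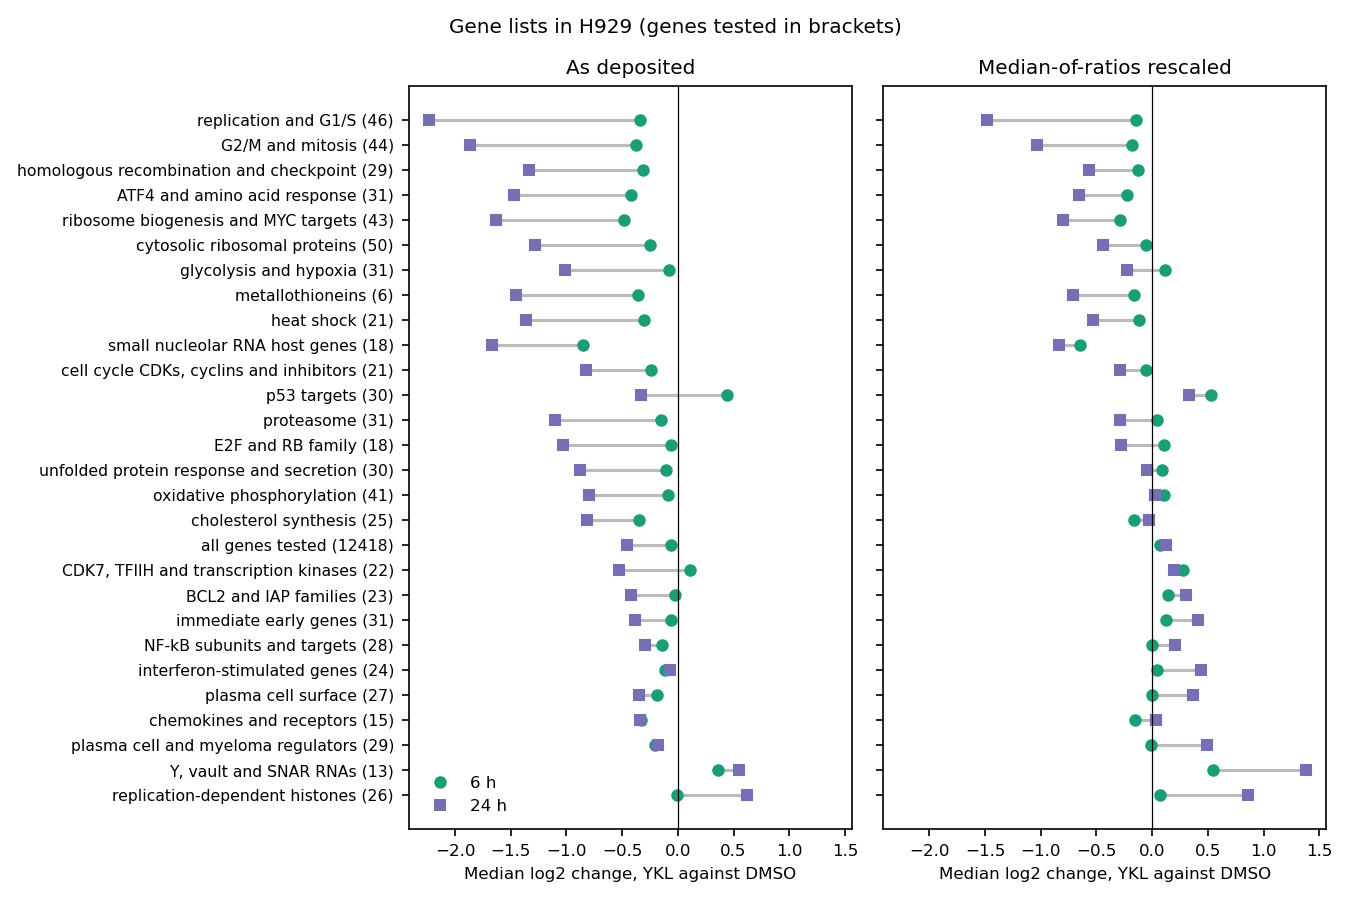
Median log2 change of each gene list at 6 h (circles) and 24 h (squares), YKL against DMSO, as deposited (left) and rescaled (right), ordered by the median interaction as deposited. Replication and G1/S lies lowest at 24 h on both scales (-2.24 and -1.48), while p53 targets lie at -0.33 and 0.33.

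The MM1S libraries, with 98 nM on their labels, hold none of the H929 levels but share the fit's estimate of spread and its filter. They thus bear on the p-values that sorted the genes: fitted alone, the 12 H929 libraries gave 514 late only, down genes, 476 of them among the 677, and 105 early and lasting, down genes, 82 of them among the 126. Over all genes tested in MM1S, 0.926% were higher and 10.0% lower with YKL at 6 h, and 0.684% were higher and 6.77% lower at 24 h. Of the 126 early and lasting, down genes of H929, 91 were lower in MM1S at 6 h (72.2%) and 34 at 24 h (26.98%), and 0 were higher at either time. Of the 677 late only, down genes, 165 were lower in MM1S at 6 h (24.4%) and 303 at 24 h (44.8%). So early genes of H929 were called in MM1S more at 6 h and late genes more at 24 h. The median changes in MM1S were -1.13 and -0.51 for the first class and -0.51 and -0.72 for the second.

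Fewer members of the rising classes were called in MM1S, from smaller classes and beside lower shares of all genes. Of the 45 early and lasting, up genes 5 were higher in MM1S at 6 h (11.1%) and 2 at 24 h (4.44%), against 0.926% and 0.684% of all genes, and of the 30 transient, up genes 2 and 0 were. With MM1S values rescaled, 12 and 13 of the 45 and 8 and 7 of the 30 were higher at 6 h and 24 h, against 8.25% and 14.4% of all genes. Of the 28 late only, up genes 1 was higher as deposited at 6 h and 7 at 24 h (25%), HIST2H2BE (2.12) and P2RX1 (1.54) among them. For single genes, MYB was lower in MM1S at both times (-2.18 and -2.24), CDC45 at 24 h alone (-0.34, adjusted p = 0.38, and -2.34, adjusted p = 1.4e-06), and OR7E12P at neither (-0.30 and 0.03, adjusted p = 0.66 and 0.99). SESN1 and POLH, transient in H929, had -0.10 and -0.16 at 6 h in MM1S (adjusted p = 0.86 and 0.68). The difference between the lines was not tested.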

How the data were processed

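Per the labels' protocols, cells were lysed in Trizol and RNA was made into QuantSeq 3′ libraries. The authors deposited 1 FPKM table per library, each with 92 ERCC spike-in entries. HISAT2, Cuffnorm and the build hg19 are named in the submitters' processing notes, and versions are not given in the sources used here. FPKM keeps no read count, so depth and counting error are unknown. Whether libraries were scaled by the spike-ins is not given in the sources used here, but the spike-in levels were even across libraries. Over ERCC entries with a mean of 10 FPKM or more, the median log2 deviation from the mean of all libraries was -0.028 to 0.035 by H929 library. The median-of-ratios factors of the genes ran from 0.664 to 2.02 in the same libraries, as they would on a spike-in scale. The tables hold 0 exact zeros, and their lowest values were 0.0370 to 0.137 FPKM by library. Per-sample columns mapped to no sample numbered 0, and 0 pairs of libraries were identical.

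Changes were fitted on log2(FPKM + 1) with limma 3.58.1 (trend) in R 4.3.3, with 8 group means over all 24 libraries, which share 1 estimate of the spread on 16 residual degrees of freedom. Genes at 1 FPKM or more in at least 3 libraries were tested. Fold changes on this scale understate those of low genes. The code was tested on simulated data. For the rescaled values, each library was divided by its median ratio to the geometric mean over 6014 genes whose geometric mean was 5 FPKM or more.

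Members, lists and rules were chosen with earlier results of these data known. For each class and direction the naming rule took up to 4 genes that held the class on both scales and up to 2 that held it as deposited only, ranked by the change that defines the class, with a mean of 5 FPKM or more in a group and no overlap at the times called. It added up to 2 members of each list with the smallest interaction p, and CDK7, MYC, IRF4, MCL1, E2F1, CDKN1A, XBP1, ATF4 and CCND2. Genes with a whole group under 0.2 FPKM are given by level only. Promoter letters come from RefSeq (GRCh38.p14). Alternatives were other pseudocounts, filters and scaling, a robust prior, the H929 libraries alone, the replicate number as a block, and each library left out.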

Additional observations from a re-analysis of the deposited data

Results flagged for a closer look

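Genes and counts whose 24 h response differed from the 6 h response, by the interaction test over all 12418 genes (limma, adjusted p under 0.05), are given by their log2 interaction. Groups of 3 libraries are too small to test 1 library against its group. In all, 36 genes had an interaction called higher and 767 called lower.

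Among replication, cell cycle and repair genes the interactions were -2.72 for CDC45, -2.60 for CDC6, -2.51 for ORC1, -2.82 for RRM2, -2.30 for E2F1 and -1.67 for E2F8. They were -2.15 for CDC25A, -1.77 for CDK2, -2.44 for CKS1B, -2.46 for AURKB, -2.06 for FANCG, -1.91 for RAD51AP1 and -1.58 for CDKN1A. Among p53 targets they were -1.76 for SESN1, -1.82 for SESN2, -1.63 for POLH, -1.48 for PLK3, -1.51 for TNFRSF10B and -1.05 for EDA2R. They were -1.58 for DDB2, -1.51 for PHLDA3, -1.29 for PPM1D and -1.43 for AEN.

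Among synthesis and stress genes they were -2.28 for PSAT1, -1.84 for PHGDH, -1.73 for STC2, -2.17 for IMPDH2, -1.97 for NPM1, -1.64 for RPL5, -1.46 for RPS3, -2.06 for HSPD1, -1.66 for FKBP4 and -3.26 for MT2A. Hosts of small nucleolar RNAs had -1.69 for SNHG1, -2.26 for SNHG16 and -1.44 for EPB41L4A-AS1. Among histone genes HIST1H4C had -2.48, against 1.86 for HIST1H2BG, 1.74 for HIST1H2BK, 2.94 for HIST2H2BE, 2.37 for HIST1H2BD and 1.94 for HIST1H3D.

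Other genes below 0 were PAQR4 (-2.77), RBM14 (-2.53), CRYGS (-2.50), IDI2-AS1 (-1.98), C21orf58 (-1.73), PFKFB4 (-1.59) and C19orf47 (-1.24). Those above 0 were ZNF341-AS1 (2.57), ENDOG (2.52), MILR1 (2.42), RGS1 (2.14), P2RX1 (2.06), TRAF3IP3 (1.95) and S100A8 (1.33).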

How the results depend on the processing

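The counts depended on the scale, on single libraries, and on the pseudocount and filter of the fit. With values rescaled, interactions called higher numbered 716, and the classes held 422 early and lasting, up, 311 early and lasting, down, 43 transient, down, 557 late only, up, 13 up and then down and 38 down and then up. With a pseudocount of 0.1 the interactions called numbered 17 higher and 430 lower, and the classes, in the order of the report, 24 early and lasting, up, 62 down, 7 transient, up, 3 down, 13 late only, up, 400 down and 1 sign-changing. With a pseudocount of 5 they numbered 58 higher and 1167 lower, with 287 early and lasting, down, 79 transient, up, 46 late only, up, 22 up and then down and 1 down and then up. Without a filter 419 interactions were lower, with 25 early and lasting, up, 72 down, 2 transient, down and 355 late only, down. A filter at 5 FPKM left 20 early and lasting, up, 11 transient, up and 1 sign-changing. The H929 libraries alone gave 15 transient, up and 3 sign-changing. Leaving out the 2 YKL libraries lowest in RNA over spike-ins (6 h replicate 1 and 24 h replicate 2), chosen after seeing the data, gave 73 early and lasting, up, 79 down, 3 transient, down, 437 late only, down, 9 up and then down and 1 down and then up. The other counts moved by less than 1.5 times, as all did with a robust prior.

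With each library left out in turn, interactions called numbered 15 to 48 higher and 257 to 1417 lower. The classes held 16 to 62 early and lasting, up, 26 to 206 down, 10 to 49 transient, up, 1 to 4 down, 11 to 39 late only, up, 229 to 1276 down, 2 to 12 up and then down and 0 to 2 down and then up. MCL1 turned from -0.07 as deposited to 0.57 rescaled. The cause of these moves was not tested.

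Same-numbered libraries deviated together in 1 of 18 pairs (r over 0.1), so the numbers were not taken to pair the libraries. With the replicate block, 75 genes were early and lasting, down, 3 transient, down and 3 sign-changing, and the other counts stayed within 1.5 times. FPKM hides depth, so for genes near 1 FPKM an undetected transcript and an absent one cannot be told apart.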
